A study of Mus musculus with 34 samples.

Results

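Trametinib is an inhibitor of MEK1 and MEK2, the kinases that phosphorylate and activate ERK1 and ERK2. It was applied at 1 µM for 24 h, in 0.4% DMSO, to N2A cells, an established mouse neuroblastoma line grown in serum, and 1 library of the treated cells was compared with 3 libraries of N2A cells given the DMSO vehicle alone (replicates A, B and C). The members were these 4 libraries out of 34 in the series, taken by their treatment labels, and the compound behind the label was read from the study's compound list. All 4 libraries come from this 1 line, and the series comes from a search for small molecules that raise or lower neuronal microexon inclusion. With 1 treated library against 3 controls an exact permutation test cannot go below p = 0.25, so no p-value is given for any difference. The probabilities below come from reads and compare these libraries, not the conditions.

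In the Ras-MAPK cascade, growth factor receptors load Ras with GTP, Ras recruits Raf kinases, Raf activates MEK, and MEK activates ERK. Active ERK drives immediate early genes and the ETS factors Etv1, Etv4 and Etv5, together with its own brakes, the Sprouty and Spred proteins and the dual-specificity phosphatases. Microexons are exons of at most 27 nt that are mostly used in neurons, keep the reading frame in most cases, and add a few residues to proteins of vesicle traffic, adhesion and the cytoskeleton. The splicing factors Srrm4 and Srrm3 promote their inclusion.

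The microexons that rose most with Trametinib are short coding stretches, and 6 of them are shown to give their size and setting. Each is printed 5′ to 3′ on the coding strand, with the microexon in capitals and 21 bases of the exon before and after it in lower case. The sequences were read from GENCODE vM21 transcripts on GRCm38.
Atp2c1, 12 nt, chr9:105493543-105493554: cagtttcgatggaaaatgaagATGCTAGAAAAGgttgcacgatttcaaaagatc
Adgrl2 (named Lphn2 in the event table), 12 nt, chr3:148860427-148860438: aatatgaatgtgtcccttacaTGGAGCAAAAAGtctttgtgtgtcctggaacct
Mast2, 21 nt, chr4:116333413-116333433: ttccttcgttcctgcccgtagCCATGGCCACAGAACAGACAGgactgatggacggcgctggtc
Synj1, 24 nt, chr16:90971564-90971587: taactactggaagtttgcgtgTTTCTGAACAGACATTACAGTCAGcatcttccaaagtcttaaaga
Ank2, 12 nt, chr3:126979256-126979267: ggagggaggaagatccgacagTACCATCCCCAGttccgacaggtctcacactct
Pacsin2, 6 nt, chr15:83383623-83383628: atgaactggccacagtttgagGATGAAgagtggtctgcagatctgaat
All 6 lie on the minus strand, inside the coding sequence, and have a length divisible by 3. The event table uses mm9 positions, so each exon was found in the annotation by its length and by the exact lengths of the introns on both sides; 57 of the 69 microexons looked for had such a match, and 54 of them were coding and could be shown.

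The libraries were read as N2A cells. Of 10 neuronal and sympathoadrenal markers, 7 were above 1 RPKM both in DMSO and with Trametinib, among them Hand2 (247.51 RPKM in DMSO and 250.48 with Trametinib), a transcription factor of the sympathetic lineage. The neurofilament genes Nefl and Nefm were at or near 0. Markers of fibroblasts, glia, immune cells and endothelium summed to at most 2.27 RPKM per list in either condition. The number of microexons that passed the coverage and balance filters was 671, 656 and 593 in DMSO A, B and C, and 657 with Trametinib, and DMSO C was the shallowest of the 4. In bulk RNA a change in the share of cells of a state and a change of RNA per cell cannot be told apart.

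The target pathway was read first from its own output genes. Expression is in RPKM, deposited as 1 value per condition, so the DMSO value is the authors' value for the condition and carries no SD. A gene was counted as changed where log2 of (Trametinib + 0.5)/(DMSO + 0.5) passed 2-fold with over 5 RPKM in either condition. By that rule 148 of 9691 genes were higher (1.53%) and 180 were lower (1.86%), and the median ratio over these genes was -0.11 on the log2 scale. With the ratios centred on that median, 201 genes were higher and 146 lower, so the balance of the directions depends on the scaling. A gene at or under 5 RPKM in DMSO was measured only through its Trametinib value and could not count as a fall. In the same way, a gene at or under 5 RPKM with Trametinib could not count as a rise. Among the rises named below, Scn3a, Klf4, Gfra1, Rgs4, Mxd4, Adm, Myl9 and Flrt3 were measured only through Trametinib. Among the falls, Etv1, Etv4, Etv5, Dusp4, Dusp5, Dusp6, Spry2, Spry4 and Phlda1 were measured only through DMSO. So were the falls of Egr1, Plk3, Mycn, Loxl2, Pcsk6 and Enpp1.

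Of 17 measured genes in the list of MAPK feedback regulators and readouts, 12 fell past 2-fold and none rose, against 1.86% lower and 1.53% higher of all genes. The list median was -1.23. Count and median include the genes named above that were measured only through DMSO. Etv5 had 35 RPKM in DMSO and 0.42 with Trametinib, a 38.6-fold drop. This and the folds that follow were computed after 0.5 RPKM was added to both values, which makes them smaller than the ratio of the values themselves. Etv4 went from 65.98 to 1.41 RPKM, 34.8-fold lower, and Etv1, the remaining member of this ETS subfamily, from 19.89 to 3.58. The 3 ETS genes were thus all lower, Etv1 least.

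Dusp6, the cytoplasmic phosphatase of ERK, had 22.01 RPKM in DMSO and 0.69 with Trametinib, 18.9-fold lower. The nuclear phosphatase gene Dusp4 went from 60.31 to 3.89 RPKM, and Dusp5 from 6.33 to 2.71. Dusp5 lay close to the 2-fold limit and was under it on centred values (-0.98). Dusp10, which encodes a phosphatase acting on p38 and JNK, had 4.3 and 8.11 RPKM and did not pass the limit.

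Spry4, a Sprouty inhibitor of receptor signalling, had 6.6 RPKM in DMSO and 0.05 with Trametinib, 12.9-fold lower. Spry2 went from 12.9 to 4.83 RPKM, Spred1 from 33.26 to 14.23 and Spred2 from 30.48 to 12.7. The Sprouty and Spred genes therefore differed in size of change, Spry4 standing apart from the other 3. Ccnd1, cyclin D1, fell from 93.54 to 40.5 RPKM, and Phlda1 from 5.4 to 0.53.

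The same genes can be set beside 3 other kinase inhibitors of the series, at doses that differ and share the DMSO libraries. SCH-772984 inhibits ERK and was used at 2 µM. Crenolanib, a PDGF receptor and FLT3 inhibitor, was used at 2 µM, and GNF-5837, a Trk inhibitor, at 0.5 µM. Etv5 had 3.77 RPKM with SCH-772984, 0.43 with Crenolanib and 0.27 with GNF-5837, and over the other 26 compounds the lowest, median and highest values were 0.27, 31.8 and 46.64. Dusp6 had 2.71, 0.55 and 0.44 RPKM with those 3 inhibitors, against a median of 26.78 over the other 26 compounds. For 12 of the 17 measured genes, at most 2 of the other 26 compounds gave a lower value than Trametinib. Spry4 and Phlda1, and Egr1 outside this list, were lower with Trametinib than with any of the other 26. The margins were small and near the floor. Spry4 had 0.05 RPKM against 0.08 with Crenolanib, and Phlda1 0.53 against 0.64 with GNF-5837. Egr1 had 0.26 RPKM against 0.35 with SCH-772984. Nothing is read from this order.

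**Figure D1:**
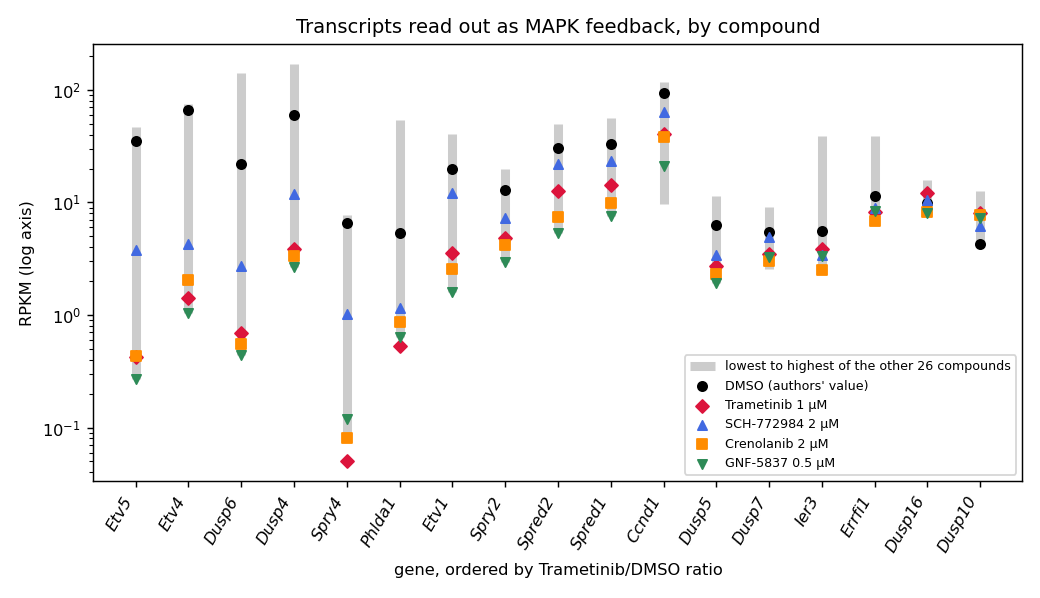
Expression (RPKM, log axis) of the 17 measured MAPK feedback and readout genes in DMSO, Trametinib and 3 other kinase inhibitors, with grey bars from the lowest to the highest value of the other 26 compounds. Etv5, Etv4, Dusp6, Dusp4 and Spry4 stand at or just beyond the low end of the grey bars with Trametinib.

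Promoters of this list were read because its members moved together. RefSeq promoters (GRCm38.p6, 250 bases before to 50 after the start) were in the table for 7 of the 12 genes that fell, as 9 windows. The ETS core GGAAGT, searched on both strands as GGAAGT or ACTTCC, stood in 4 of the 9, and in 23.7% of all 32544 promoter windows. Over the whole list, fallen or not, it stood in 6 of 23 windows of 20 genes, close to the share of all windows. The longer ETS site CCGGAAGT, also searched on both strands, stood in 0 of these 23 windows and in 3.92% of all windows. The windows of Etv5 and Spred2 are printed as examples with a match, in the direction of transcription and with the matches in capitals.
Etv5 promoter, chr16:22438319-22438618, minus strand: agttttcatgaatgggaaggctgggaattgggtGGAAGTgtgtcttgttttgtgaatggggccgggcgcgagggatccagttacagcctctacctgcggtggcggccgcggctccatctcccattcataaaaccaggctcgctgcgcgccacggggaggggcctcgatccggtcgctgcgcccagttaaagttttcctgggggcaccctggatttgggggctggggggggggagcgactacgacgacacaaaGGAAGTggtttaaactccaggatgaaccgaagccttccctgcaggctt
Spred2 promoter, chr11:19924192-19924491, plus strand: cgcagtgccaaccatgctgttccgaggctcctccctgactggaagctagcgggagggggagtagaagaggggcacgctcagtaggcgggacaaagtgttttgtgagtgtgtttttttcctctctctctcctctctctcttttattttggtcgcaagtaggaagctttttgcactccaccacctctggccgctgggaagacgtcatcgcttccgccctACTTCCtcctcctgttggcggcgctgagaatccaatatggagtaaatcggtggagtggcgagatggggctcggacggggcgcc
A match to these letters is a description of the window and not a mapped binding site. The other Etv5 window, chr16:22439521-22439820, held no match, and neither did the Dusp6 and Spry2 windows.

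The kinases and adaptors of the cascade itself were read next. Of 33 measured genes of the core ERK pathway, 1 rose past 2-fold and none fell, against 1.53% and 1.86% of all genes. These counts do not set the list apart from all genes. The log2 ratios ran from -0.97 to 1.13. The median was 0.01 against -0.11 for all genes. The gene that rose was Mras, a Ras-family GTPase of the Shoc2 phosphatase complex, from 9.23 to 20.79 RPKM. The targets of the compound, Map2k1 and Map2k2, had 32.64 and 24.83 RPKM, and 41.94 and 37.51 RPKM, in DMSO and with Trametinib. Neither passed 2-fold, and the compound acts on the kinases, not on their transcripts. Rasa1, a Ras GTPase-activating protein, had 52.98 and 82.92 RPKM, and its value with Trametinib was above all other 26 compounds.

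Of 21 measured immediate early genes, 2 fell and 3 rose, against 1.86% lower and 1.53% higher of all genes. Egr1, a zinc finger factor induced through ERK and SRF cofactors, fell from 16.84 to 0.26 RPKM, 22.8-fold with 0.5 RPKM added to both. Plk3 fell from 13.45 to 4.57 RPKM. Klf6 rose from 23.62 to 57.98, Klf4 from 1.99 to 5.02, and Jun, a subunit of AP-1, from 15.87 to 32.46 RPKM. The 3 rises were small: against the median of the other 26 compounds as reference, their log2 ratios were 0.87, 0.71 and 0.93 and none passed 2-fold.

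Among growth factor receptors and adaptors, 7 genes were measured, of which 3 fell and 1 rose, against 1.86% and 1.53% of all genes. Ngfr, the p75 neurotrophin receptor, went from 46.04 to 6.76 RPKM. Ret, the receptor kinase for GDNF ligands, went from 131.73 to 30.62 RPKM, while its co-receptor gene Gfra1 rose from 3.59 to 11.68. Irs2, an adaptor of the insulin and IGF receptors, fell from 33.21 to 9.22 RPKM. SCH-772984, Crenolanib and GNF-5837 gave 47.3, 17.57 and 15.04 RPKM for Ret.

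Mycn, the MYC family member that drives neuroblastoma when amplified, fell from 10.86 to 1.91 RPKM, and Mxd4, a MAX partner that opposes MYC, rose from 2.05 to 9.6. Mycn had 2.34 RPKM with SCH-772984 and 0.9 with Crenolanib. In the list of ribosome biogenesis genes and MYC targets that holds both, these were the only 2 of 30 measured genes past 2-fold. Of all genes, 1.53% were higher and 1.86% lower. Of the 30, 28 were below 0, as were 63.9% of all genes, with a median of -0.56 against -0.11 for all genes. Rrp9, Ppan and Polr1b, which serve rRNA processing and transcription, had log2 ratios of -0.97, -0.79 and -0.76.

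Of 35 cell cycle and replication genes, none passed 2-fold in either direction, against 1.53% higher and 1.86% lower of all genes. Of the 35, 34 were below 0, as were 63.9% of all 9691 genes, with a median of -0.42 against -0.11 for all genes. Cdt1, which licenses replication origins, had 76.54 and 38.93 RPKM in DMSO and with Trametinib. Cdc20, the activator of the anaphase-promoting complex, had 51.88 and 31.84, and Rrm2, a ribonucleotide reductase subunit, 96.03 and 62.89. The CDK inhibitors and other brakes had no gene past 2-fold among 15, against the same shares, and their median was 0.12. Neither count past 2-fold sets its list apart from all genes. Cdkn1a, which encodes p21, had 11.55 and 16.66 RPKM.

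Neuronal genes moved in both directions. Of 25 measured genes of neuronal differentiation, 2 rose and 2 fell past 2-fold, against 1.53% and 1.86% of all genes. Of the 25, 18 were above 0, where 63.9% of all genes were below 0. The median was 0.4 against -0.11 for all genes. Stmn4, a stathmin that binds tubulin, rose from 12.21 to 67.23 RPKM, and Syt1, the calcium sensor of synaptic vesicle release, from 40.22 to 91.43. Gap43, a growth cone protein, had 173.8 and 343.93 RPKM, and Tubb3, neuronal beta-tubulin, 395.99 and 660.53. Stmn4, Gap43, Stmn2 and Tubb3 were each above the highest of the other 26 compounds. For Stmn4 that highest value, 65.57 RPKM with GNF-5837, lay close to Trametinib. GNF-5837 also gave the highest other values for Stmn2 (268.52 against 331.78 RPKM) and Tubb3 (510.67 RPKM). Vgf, a secreted neuropeptide precursor induced by neurotrophins, fell from 107.94 to 12.02 RPKM, and Dpysl3, a collapsin response mediator, from 288.2 to 84.34.

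Ion channel genes had the highest median of the lists, 0.64, against -0.11 for all genes. Of 16 measured genes, 3 passed 2-fold upward and none downward, against 1.53% and 1.86% of all genes. Of the 16, 13 were above 0, where 63.9% of all genes were below 0. Scn3a, 1 of the 3, was over 5 RPKM only with Trametinib, so the filter let it in through its rise. Scn3b, a sodium channel beta subunit, rose from 14.65 to 58.97 RPKM, Scn3a from 3.77 to 9.54, and Chrna3, a nicotinic receptor subunit of autonomic neurons, from 50.46 to 115.85. The Scn3a ratio was 0.97 with the median of the other 26 compounds as reference, just under 2-fold. Among RGS proteins, which speed GTP hydrolysis by G alpha subunits, Rgs4 rose from 3.01 to 46.09 RPKM and the other 6 measured members did not pass 2-fold. Rgs4 had 11.26 RPKM with SCH-772984, 27.8 with Crenolanib and 91.49 with GNF-5837.

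**Figure D2:**
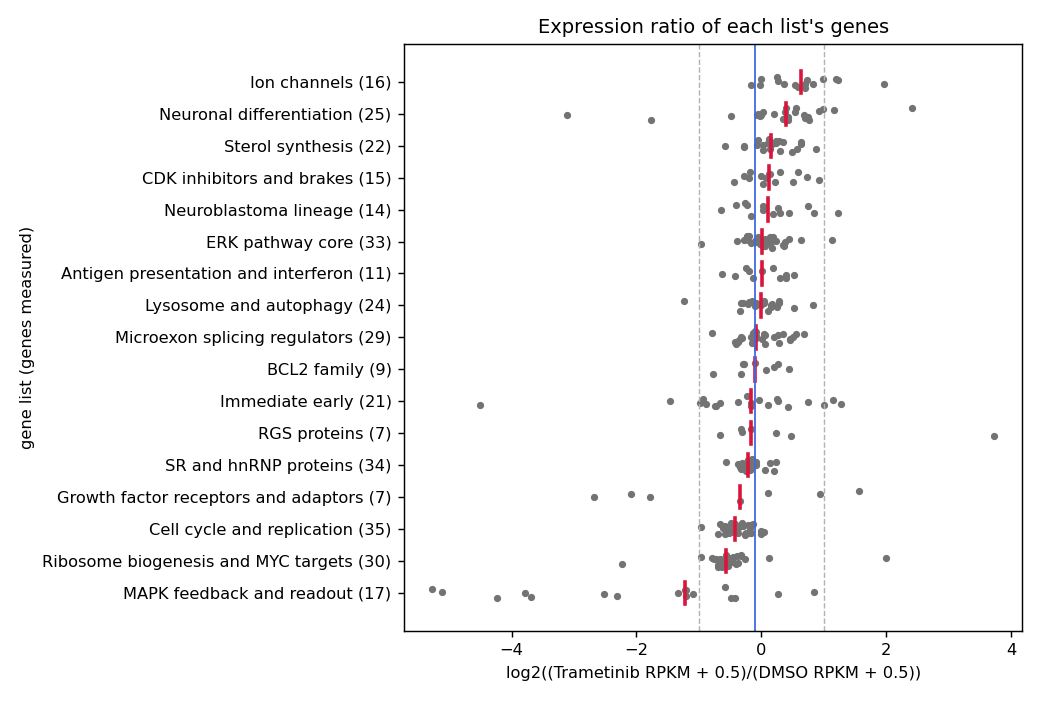
Each grey point is a measured gene, placed by log2((Trametinib RPKM + 0.5)/(DMSO RPKM + 0.5)), red bars are list medians, the blue line is the median of all 9691 genes (-0.11) and dashed lines mark 2-fold. The MAPK feedback list lies furthest to the left, with a median of -1.23, and ion channels furthest to the right, with a median of 0.64.

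Outside the lists, the largest rises past 2-fold included Adm, which encodes the vasodilator peptide adrenomedullin, from 0.98 to 12.21 RPKM. Pdlim3, an actin-associated LIM protein, rose from 17.47 to 121.19 RPKM, and Myl9, a regulatory myosin light chain, from 1.16 to 9.54. Hdac9, a class IIa histone deacetylase, rose from 5.89 to 26.79, and Flrt3, a membrane adhesion protein, from 2.97 to 13.1. Pdlim3, Hdac9 and Flrt3 were each above all other 26 compounds, each time with GNF-5837 next. GNF-5837 gave 120.03 RPKM for Pdlim3, almost the Trametinib value, 22.46 for Hdac9 and 8.79 for Flrt3. Among the largest falls outside the lists, Loxl2, a lysyl oxidase, went from 18.01 to 0.51 RPKM, Dkk1, a secreted Wnt inhibitor, from 81.9 to 14.06, Pcsk6, a proprotein convertase, from 22.86 to 2.58, and Enpp1 from 12.92 to 1.95.

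Splicing was read as percent spliced in (PSI), the share of junction reads that include an exon, retain an intron or use a splice site. An event was called where Trametinib differed from the mean of DMSO by at least 10 PSI and the reads gave a probability over 0.95 for that direction. Of 621 microexons tested, 60 rose (9.66%) and 4 fell (0.644%). Of 57185 longer cassette exons, 334 rose (0.584%) and 196 fell (0.343%). Of 87642 introns, 217 were retained more (0.248%) and 127 less (0.145%). Of 16349 alternative acceptor sites that lengthen an exon, 94 were used more (0.575%) and 113 less (0.691%), and of 12115 such donor sites, 104 more (0.858%) and 107 less (0.883%). Called acceptor and donor sites thus numbered about the same in both directions, whereas microexons moved mostly up. Sites of the same event share its reads, so a rise at 1 tested site can bring a fall at another. In Cc2d1a, the same 42 reads gave differences of 24.6 PSI at 1 acceptor site and -24.6 PSI at another. The evenness of these sites is therefore partly built in, and their counts are not a like contrast to microexons. All 60 microexons that rose and all 4 that fell lay outside the values of the DMSO libraries that passed.

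**Figure D3:**
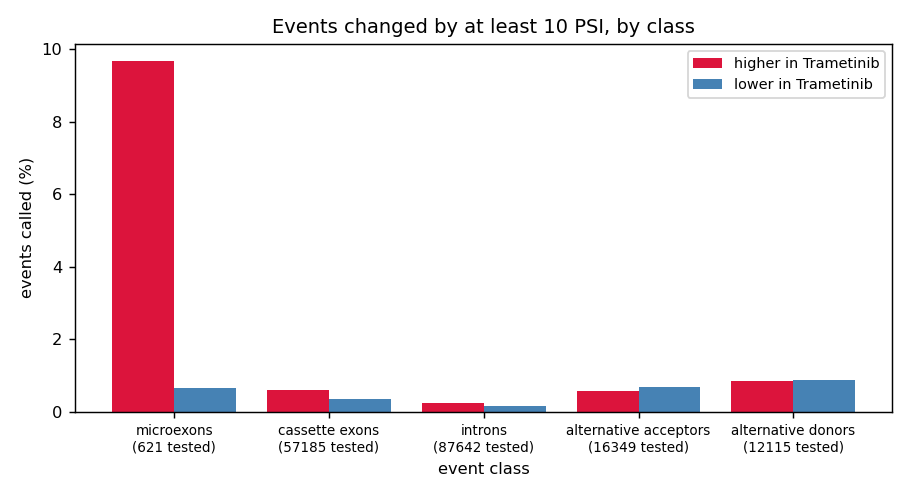
Bars give the percentage of tested events in each class that were higher (red) or lower (blue) with Trametinib by at least 10 PSI at a read-based probability over 0.95. Microexons reach 9.66% upward and 0.644% downward, and no other bar passes 1%.

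Because classes differ in how many events sit near 0 or 100 PSI, they were also read among events with 10 to 90 PSI in DMSO. There, 57 of 165 microexons rose (34.5%) against 319 of 2741 longer cassette exons (11.6%), 100 of 1727 introns (5.79%), 79 of 1547 acceptor sites (5.11%) and 85 of 1227 donor sites (6.93%). In the same range and order of classes, 3, 91, 125, 84 and 90 events fell. The median difference in this range was 6.3 PSI for microexons and 1.7 PSI for longer cassette exons. The median DMSO levels within it were 48.4, 70.9, 16.4, 58.7 and 41.8 PSI for the 5 classes. The classes, microexons and longer cassette exons among them, thus still differed in room to rise. Exons of 28 to 50 nt, just over the microexon limit, rose in 56 of 2289 cases (2.45%), and those of over 200 nt in 27 of 6410 (0.421%).

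The rises were also counted by the inclusion of the microexon in DMSO. Of 88 microexons with 10 to 50 PSI in DMSO, 42 rose (47.7%) and none fell, with a median difference of 9.1 PSI. Of 77 with 50 to 90 PSI, 15 rose (19.5%) and 3 fell. Of 234 under 10 PSI, 3 rose (1.28%), and of 222 at 90 PSI or over, none did, but exons at that level leave no room for a rise of 10 PSI and nothing is read from this count. Microexons whose length is a multiple of 3 rose in 58 of 462 cases (12.6%) and the others in 2 of 159 (1.26%). The frame-breaking ones had a median DMSO level of 97.4 PSI against 31.7 PSI for the frame-keeping ones. By length, 9 of 164 microexons of 1 to 9 nt rose (5.49%), 15 of 155 of 10 to 15 nt (9.68%), 16 of 102 of 16 to 21 nt (15.7%) and 20 of 200 of 22 to 27 nt (10.0%). The median DMSO levels of these 4 length groups were 1.1, 5.4, 86.3 and 97.4 PSI, so the length groups differ in room to rise as well.

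**Figure D4:**
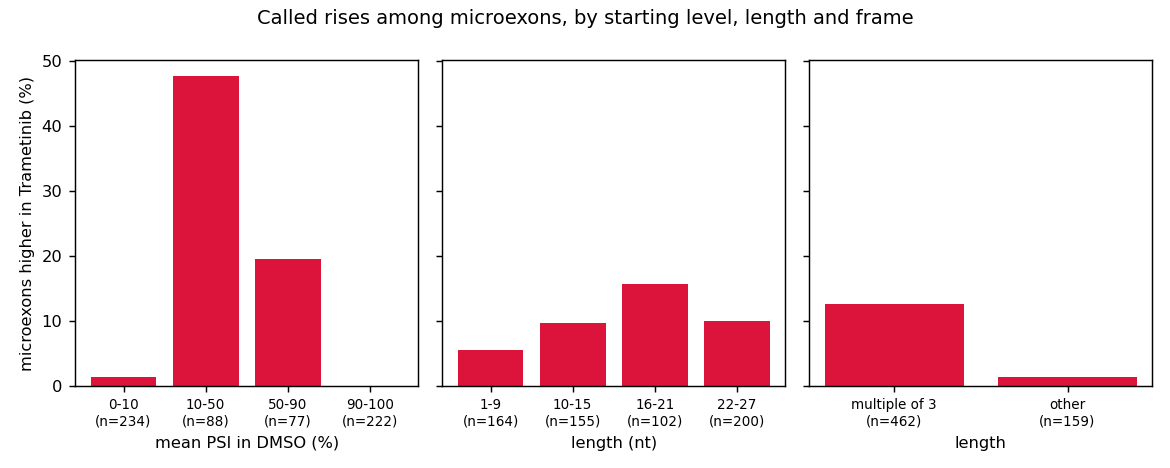
Bars give the percentage of tested microexons called higher with Trametinib, by mean PSI in DMSO (left), by length in nt (middle) and by whether the length is a multiple of 3 (right), with the number tested under each bar. The bar for 10 to 50 PSI reaches 47.7%.

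The largest rise was that of the 12-nt microexon of Atp2c1, a Golgi calcium and manganese pump, which had 34.2, 20.7 and 14.4 PSI in DMSO A, B and C and 50.4 PSI with Trametinib. The DMSO libraries spread widely there, with an SD of 10.1, and the Trametinib value rests on 32 reads. In Adgrl2, an adhesion receptor of the latrophilin family, the 12-nt microexon had 17, 15 and 18.5 PSI in DMSO and 41.6 PSI with Trametinib, far beyond the DMSO SD of 1.7. The 21-nt microexon of Mast2, a microtubule-associated kinase, had 47.0, 48.9 and 33.3 PSI in DMSO and 66.0 PSI with Trametinib.

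Microexons of membrane traffic rose in 8 of the 34 tested in that list, and none fell, against 9.66% and 0.644% of all tested microexons, with a median difference of 3.35 PSI against 0.06 for all microexons. Here and in the lists below, all tested microexons include 234 under 10 PSI and 222 at 90 PSI or over in DMSO. Among the 165 with 10 to 90 PSI, 34.5% rose, with a median difference of 6.3 PSI. The lists were not split by starting level, so no excess of a list over other microexons is read from these counts. The 27-nt microexon of Snx14, a sorting nexin, had 51.6, 46.9 and 42.4 PSI in DMSO and 69.8 PSI with Trametinib. That of Synj1, the phosphoinositide phosphatase synaptojanin, had 64.8, 66.4 and 62.5 PSI and then 86.5 PSI. In Picalm, a clathrin assembly protein, the 24-nt microexon had 30.5, 34.6 and 33.6 PSI in DMSO and 48.1 PSI with Trametinib on 1886 reads. Exoc1, a subunit of the exocyst, went from 4.2, 8.4 and 6.0 PSI to 22.7 PSI. In each of these 4 genes the Trametinib value lay above all 3 DMSO values.

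In the list of adhesion, cytoskeleton and guidance genes, 11 of 59 microexons rose and 2 fell, against the same 9.66% and 0.644%, with a median difference of 1.4 PSI. The 12-nt microexon of L1cam, a neural adhesion molecule, had 42.6, 41.4 and 38.1 PSI in DMSO and 58.5 PSI with Trametinib. Ank2, which encodes ankyrin-B, had 62.9, 50.8 and 58.9 PSI in DMSO and 78.9 PSI. Ppfia2, a liprin of synaptic active zones, had 15, 21.6 and 15.8 PSI and then 40 PSI. Clasp2, a microtubule plus-end protein, had 43.4, 27.9 and 40.4 PSI and then 60.1 PSI, and its paralogue Clasp1 had 72.0, 65.1 and 68.9 PSI and then 81.0 PSI.

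Of 27 microexons in genes of kinases and signalling, 8 rose and none fell, with a median difference of 5.3 PSI, against 9.66% and 0.644% of all tested microexons. Vav2, a guanine nucleotide exchange factor, had 74.1, 76.8 and 73.0 PSI in DMSO and 92.2 PSI with Trametinib. Tnik, a Ste20-type kinase, had 49.5, 44.7 and 43.8 PSI and then 65.4 PSI. Its Trametinib value was above all of the other 26 compounds, the highest of which had 63.6 PSI. In the chromatin and transcription list 2 of 12 microexons rose, where 9.66% of all did: Mef2a, a MADS-box factor, from 17.6, 12.4 and 15 to 25.4 PSI, and Med23, a Mediator subunit, from 39.5, 47.4 and 40.8 to 55.3 PSI. The Mef2a rise was under 10 PSI without DMSO B (9.1).

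The most deeply read of the 12 largest rises was the 6-nt microexon of Pacsin2, an F-BAR protein of endocytosis, printed above. It had 37.5, 34.6 and 40.5 PSI in DMSO and 58.1 PSI with Trametinib on 1374 reads. The 21-nt microexon of the translation initiation scaffold Eif4g1 had 47.3, 47.5 and 50.2 PSI in DMSO and 62.8 PSI with Trametinib on 1395 reads.

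The paralogues Fry and Fryl, large scaffold proteins of the NDR kinase pathway, carry related microexons of 18 nt that both rose, and these are shown for comparison with 21 flanking bases on each side in lower case.
Fry, chr5:150488961-150488978, plus strand: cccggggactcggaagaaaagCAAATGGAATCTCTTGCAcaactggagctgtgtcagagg
Fryl, chr5:73024771-73024788, minus strand: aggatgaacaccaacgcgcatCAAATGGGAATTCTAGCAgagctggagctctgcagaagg
Of the 18 bases, 14 are the same, and the 4 that differ, counted from 1 at the 5′ end of the microexon with the Fry base first, are A8G, T10A, C11T and T15A. Inclusion differed by 16.6 PSI in Fry, from a DMSO mean of 18.5 to 35.1, and by 16.8 PSI in Fryl, from 59.3 to 76.1. Each of these DMSO means rests on 2 libraries, B and C for Fry (19.9 and 17.1 PSI) and A and B for Fryl (52.0 and 66.6 PSI), and the Trametinib values on 54 and 75 reads. The Fryl rise was 9.4 PSI without DMSO A.

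The 4 falls were found in Shank2, Iffo1, Gnas and Myo18a. Shank2, a postsynaptic scaffold, had 58.3, 64.1 and 37.6 PSI in DMSO for a 9-nt microexon and 25.7 PSI with Trametinib on 44 reads. Gnas, which encodes the G alpha s subunit, had 55.3, 51.4 and 52.7 PSI for a 24-nt exon in DMSO and 37.2 PSI with Trametinib. This Gnas exon had 39.1, 35.3 and 41.0 PSI with SCH-772984, Crenolanib and GNF-5837, and 1 of the other 26 compounds, Crenolanib, lay below Trametinib. Iffo1 had 54.3, 48.0 and 66.8 PSI and then 32.9 PSI.

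**Figure D5:**
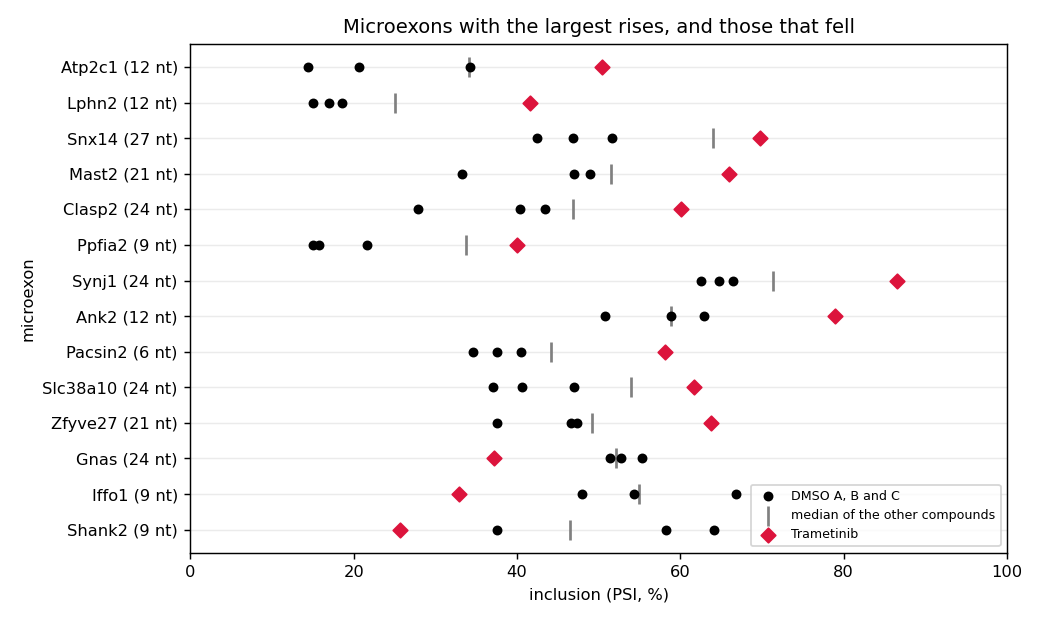
Inclusion (PSI, %) of 11 of the 12 microexons with the largest rises and of 3 that fell and passed in all DMSO libraries, with black points for DMSO A, B and C, red diamonds for Trametinib and grey ticks for the median of the other compounds. Trametinib lies outside the DMSO points in every line shown.

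Further microexons were read because the study also followed them one by one. Ergic3, a cargo receptor between ER and Golgi, had 33.9, 39.8 and 42.0 PSI in DMSO and 53.6 PSI with Trametinib. Mef2d had 89.5, 88.7 and 88.7 PSI and then 96.3 PSI, under the 10 PSI limit. Zmynd8 had 52.2, 53.4 and 49.2 PSI and then 48.5 PSI, and Trappc9 29.7, 31.6 and 33.2 PSI and then 30.7 PSI. Zmynd8 and Trappc9 thus did not pass the limit, with values just under their DMSO means. For Zmynd8 this differs from the paper's RT-PCR in N2A cells carrying an shRNA, which reported a positive effect of Trametinib on its microexon. The reason for the difference was not tested.

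The values were set beside the other compounds as a description, since the exons were chosen for exceeding DMSO. For 51 of the 60 microexons that rose, the median of the other compounds was above the DMSO mean, with a median difference of 4.5 PSI over the 60, and over all 621 tested microexons this was so for 260 (41.9%). Among the 165 with 10 to 90 PSI in DMSO it was so for 110 (66.7%), with a median difference of 1.5 PSI over the 165. Trametinib was above the median of the other compounds for 128 of these (77.6%), with a median difference of 5.3 PSI over the 165. For the 60 that rose, it was above that median in all, by 11.4 PSI in the median and by at least 10 PSI for 35 of them. It gave the highest value of all compounds for 5, and for 22 at most 2 other compounds were higher. Of the same exons, SCH-772984 was at least 10 PSI above the DMSO mean for 19 of 59 with a passing value, Crenolanib for 25 of 56 and GNF-5837 for 42 of 57. These compounds share the DMSO libraries and differ in dose, so the counts stand side by side only.

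The genes that carry the microexons that rose were mostly not changed in expression. Of 59 measured host genes, 3 were past 2-fold higher and 1 lower, with a median log2 ratio of 0.14, against 9 higher, 5 lower and a median of -0.02 for all 499 measured hosts of tested microexons. Ppfia2 was one of the 3, from 8.59 to 21.8 RPKM. Atp2c1 had 43.99 and 39.6 RPKM, Adgrl2 38.2 and 37.03, and Mast2 38.67 and 37.9.

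Regulators of microexons had no gene past 2-fold in RNA among 29 measured, against 1.53% higher and 1.86% lower of all genes. This count does not set the list apart from all genes. The median was -0.08 against -0.11 for all genes. Protein is not measured by these libraries. By western blot, the paper reported more SRRM4 and less RBM38 protein with Trametinib, although their mRNAs did not change significantly. Srrm4 had 10.42 RPKM in DMSO and 13.28 with Trametinib, and Srrm3 18.49 and 16.85. Rbm38, which the paper describes as a negative regulator of microexon splicing, had 40.62 and 23.33 RPKM. It was the member furthest from 0, and only 1 of the other 26 compounds was lower. Ptbp1, which represses many neuronal exons, had 476.41 and 368.25 RPKM. Of 34 SR and hnRNP protein genes none passed 2-fold, against the same 1.53% and 1.86% of all genes. Of the 34, 30 were below 0, as were 63.9% of all genes. Their median was -0.22 against -0.11 for all genes.

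Transcripts of some regulators changed in splicing; these and the following exons in the lists were singled out after their values were seen. A 53-nt exon of Rbfox1 had 30.9, 39.8 and 23.9 PSI in DMSO and 53.1 PSI with Trametinib. A 54-nt exon of Mbnl2 had 28.1, 36.5 and 42.0 PSI and then 16.3 PSI. A 40-nt exon of Rbfox2 had 92.5, 90.1 and 83.5 PSI and then 78.3 PSI on 1032 reads. The Rbfox2 difference was -8.5 PSI without DMSO A and -9.6 PSI without DMSO B, under the limit in both cases. In all, 3 of 158 tested cassette exons in genes of this list rose and 2 fell, against 0.584% and 0.343% of all longer cassette exons.

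In Snap25, a SNARE protein of vesicle fusion, 2 exons of 118 nt changed in opposite directions. The first had 81.6, 77.7 and 82.8 PSI in DMSO and 66.4 PSI with Trametinib, and the second 10.8, 14.4 and 10.2 PSI and then 26 PSI, on 1441 and 1291 reads. Snap25 is known for a mutually exclusive exon pair that switches during neuronal maturation. A 93-nt exon of Mapt, which encodes tau, had 30, 29.2 and 24.4 PSI in DMSO and 38.4 PSI with Trametinib, and a 36-nt exon of Homer1, a postsynaptic scaffold, 28.8, 21.2 and 27.6 PSI and then 42.8 PSI. The Mapt difference was 8.9 PSI without DMSO C.

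In the cascade itself, a Braf donor site that lengthens an exon by 43 nt had 2.6, 3.7 and 0.0 PSI in DMSO and 19.9 PSI with Trametinib on 54 reads. It had 3.8, 3.4 and 2.7 PSI with SCH-772984, Crenolanib and GNF-5837. An exon of 126 nt in Sos1, the Ras exchange factor, had 91.4, 97.2 and 100 PSI and then 84.8 PSI. An acceptor site that adds 12 nt to an exon of Ptpn11, the phosphatase SHP2, had 52.6, 43.8 and 49.2 PSI and then 38.0 PSI on 498 reads. Both were under the limit without 1 library, the Sos1 difference at -9.4 PSI without DMSO C and that of Ptpn11 at -8.6 PSI without DMSO A.

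Among longer cassette exons, the largest rise was a 57-nt exon of Inf2, a formin that nucleates actin, with 22, 24.4 and 25.6 PSI in DMSO and 67.4 PSI with Trametinib, though on 41 reads. It lay above all of the other 26 compounds, the highest of which had 62.3 PSI. A 33-nt exon of Ubr4, an E3 ubiquitin ligase, had 25.7, 23.4 and 22.8 PSI and then 54.2 PSI, and 52.7 and 62.2 PSI with Crenolanib and GNF-5837. A 69-nt exon of Syne2, the nuclear envelope protein nesprin-2, had 49.0, 50.3 and 55.3 PSI and then 81.2 PSI on 463 reads. Sgip1, a regulator of endocytosis, had 60.4, 54.8 and 47.0 PSI for a 498-nt exon and then 81.3 PSI on 510 reads.

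The largest fall was a 115-nt exon of Rin1, a Ras-binding exchange factor for Rab5, with 80.7, 87.0 and 86.3 PSI in DMSO and 51 PSI with Trametinib on 44 reads. Atp8a1, a phospholipid flippase, had 57.2, 50.1 and 77.2 PSI for a 74-nt exon and then 30.3 PSI. A 55-nt exon of Evi5, a Rab GTPase-activating protein, had 60, 69.0 and 74.6 PSI and then 44.7 PSI on 225 reads. Nagpa, an enzyme of lysosomal sorting, had 90.7, 89.7 and 89.9 PSI for a 206-nt exon and then 67.6 PSI.

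Introns and splice sites at the top of their classes rested on few reads. An intron of 89 bp in Dom3z had 35.8, 29.2 and 19 PSI in DMSO and 76.7 PSI with Trametinib on 23 reads. A 995-bp intron of Spna2, alpha-spectrin, had 85.3, 100 and 81.5 PSI and then 38.5 PSI on 50 reads, the largest fall of any intron named. An intron of Eif4enif1, which encodes the eIF4E transporter, had 37.1, 41.2 and 36.6 PSI and then 12.8 PSI on 22 reads, and 14.3 and 6.2 PSI with SCH-772984 and GNF-5837. A 3-nt acceptor choice in Dnmt3b, a DNA methyltransferase, had 55.4, 50.6 and 59.5 PSI and then 82.0 PSI, above the highest value of the other compounds. A donor choice in Scn8a, a sodium channel, had 17.5, 3.8 and 14.3 PSI and then 38.5 PSI on 39 reads. A donor site of Mib2, an E3 ligase of Notch signalling, had 97.2, 97.9 and 100 PSI and then 72.4 PSI on 93 reads. The acceptor site with the largest fall, in Mbtd1, had 21, 66.0 and 97.4 PSI in DMSO, so that its 10.0 PSI with Trametinib follows controls that differ widely among themselves.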

How the data were processed

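RNA was measured by RNA-seq of poly(A) libraries from N2A cells. The authors quantified splicing with vast-tools on mm9 junctions, deposited as percent PSI with a quality string holding inclusion and exclusion reads, and expression with Salmon (0.10.2 per the labels), tximport and edgeR on GENCODE vM21, deposited as RPKM per condition. Deposited columns of fold changes, p-values and FDR hold the authors' own comparisons and were not used; 0 columns were unmatched.

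Exons and splice sites needed score 3 of SOK, OK or LOW, exons also a junction balance of OK or B1 (vast-tools gives none for some microexons, which were kept), and introns 15 or more reads with a balance p over 0.05, in Trametinib and at least 2 of 3 DMSO libraries. Probabilities came from 2000 seeded beta draws per library with a uniform prior. For acceptor and donor sites, every site but the first of an event was tested. The calls were tested on simulated data. RPKM values had a pseudocount of 0.5; library depth behind RPKM is not known. Python 3.11.15, numpy 2.4.6 and pandas 2.3.3 were used.

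Named genes were the 15 largest rises and falls past threshold (a selection is described), members of lists furthest from 0, and 5 genes by name. Named events were the 12 largest microexon rises, every fall, 8 cassette exons and 5 of each other class per direction, with at least 20 reads and 3 passing DMSO libraries, plus list members and assayed exons. Members and lists were chosen with earlier results of these data known. Intervals and probabilities cover counting error only. Some genes and exons are not reported here.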

Additional observations from a re-analysis of the deposited data

How the results depend on the processing

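No paired analysis was possible because there was 1 Trametinib library. With a limit of 15 PSI in place of 10, 31 microexons, 118 longer cassette exons, 114 introns, 39 acceptor sites and 51 donor sites rose, and 63 cassette exons, 63 introns, 34 acceptor sites and 48 donor sites fell. Without the limit on the probability, 352 introns rose and 205 fell. With stricter coverage (SOK or OK, introns at least 30 reads), 117 introns rose and 63 fell, and 68 donor sites fell. Without the balance filter, 367 introns rose and 261 fell. Of microexons of at most 15 nt, 24 rose. Leaving out DMSO A, B or C in turn, with 1 remaining library enough, gave 4 to 7 microexon falls (7 without DMSO B and 7 without DMSO C) and 60 to 65 rises. At over 1 RPKM, 383 genes were higher and 428 lower; with no RPKM limit, 483 and 564; at 1.5-fold, 500 and 683. Centring on the median of genes over 5 RPKM gave 201 higher and 146 lower genes in place of 148 and 180, which turns the balance between the directions. All other counts stayed within 1.5 times the reported ones, and no named event or gene called in the report changed direction. Over 9 alternatives, 112 of 1416 values of the 161 events followed lost their call, 56 of them at 15 PSI. Leaving out 1 DMSO library ended the calls of the microexons of Ank3, Arrb1, Fryl, Phc1, Src and Trpm2 (DMSO A), of Cacnb1, Mef2a, Phc1, Prdm10 and Ptk2 (DMSO B) and of Layn, Mink1 and Ptk2 (DMSO C), among others. The cause was not tested. Events with few reads, mostly introns and splice sites, are limited by depth.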

Other observations

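Genes of sterol synthesis had no member past 2-fold among 22, against 1.53% higher and 1.86% lower of all genes. Of the 22, 17 were above 0, where 63.9% of all genes were below 0, and the median log2 ratio was 0.15 against -0.11. Hmgcs1, an early enzyme of the mevalonate pathway, had 106.83 RPKM in DMSO and 195.37 with Trametinib, and Fdft1, squalene synthase, 31.59 and 49.3. Acly, which supplies cytosolic acetyl-CoA, had 389.78 and 260.22. Among 24 lysosome and autophagy genes, Wipi1, a phosphoinositide-binding protein of autophagosome formation, fell from 25.01 to 10.27 RPKM and was lower than with any of the other 26 compounds, and no gene rose past 2-fold.

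Of 14 neuroblastoma lineage genes, Ddc, the decarboxylase of catecholamine synthesis, rose from 5.24 to 12.94 RPKM, but the median of the other 26 compounds was 12.11 and the log2 ratio to it was 0.09. The BCL2 family (9 measured) and the antigen presentation and interferon list (11 measured) had no gene past 2-fold. Of all genes, 1.53% were higher and 1.86% lower, so these small lists are not set apart by that. Bak1, a pro-apoptotic effector, had 19.43 and 11.08 RPKM.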
